A study of Homo sapiens with 12 samples.

Results

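The 39 genes described here encode the machinery that licenses and copies chromosomal DNA, from the origin recognition complex to the ligase that seals the lagging strand. They were taken by gene symbol, each symbol matching 1 row in each of the deposited count tables, out of 26226 genes listed for KBM7 and 28328 for K562. The rule uses names and no measured value. All 39 passed the filter on low counts in both cell lines, where 14980 and 13731 genes were tested.

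Replication origins are licensed in G1, when the origin recognition complex, CDC6 and CDT1 load the MCM2-7 helicase onto DNA and geminin later blocks further loading. In S phase CDC45 and the GINS complex turn the loaded helicase on, primase with polymerase alpha starts each new strand, and polymerases delta and epsilon extend it while held by the PCNA clamp, which the RFC complex loads. Many of these genes are transcribed under E2F control, and blood precursors and leukemia cell lines that divide quickly express them strongly.

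KBM7 and K562, human lines established from chronic myelogenous leukemia in blast crisis, were transiently transfected with pooled siRNAs that target USP15 (siUSP15) or with pooled non-targeting siRNAs (siCtrl), and RNA was taken 72 h later. USP15 is a deubiquitinating enzyme, and the comparison asks how the RNA of these cells differs after its partial depletion. KBM7 had 2 libraries per group and K562 had 4, and the labels do not say whether these were separate cultures. If they were not, a p-value here reflects technical spread alone. Each arm is 1 transfected pool of siRNAs in an uncloned population, so effects of single siRNAs cannot be told apart.

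The total count per library lay between 23020401 and 43566543, of which the 39 genes took 0.663 to 0.678% in KBM7 and 0.567 to 0.653% in K562. Levels are given as CPM, the count of a gene scaled to a common library size with TMM factors. In KBM7 the USP15 level was 210 and 216 CPM in siCtrl and 113 and 114 in siUSP15, so that 53.4% was left. In K562 replicates 1 and 2 it was 269 and 275 CPM against 116 and 134, and in replicates 3 and 4 it was 343 and 330 against 191 and 197. In K562 the first principal component (64.4% of the variance) split the libraries into 2 sets, one of replicates 1 and 2 and the other of replicates 3 and 4. The authors named the K562 data as batch corrected without naming the batch, and the labels do not say what the sets are. Set was therefore a term of the K562 fit, and each set was also read on its own. The knockdown differed between them, with 46.2% of USP15 left in the first set and 57.6% in the second (difference of log2 fold changes 0.32, adjusted p = 0.013, edgeR). The K562 libraries expressed the erythroid factor KLF1 at 103 to 129 CPM, and the KBM7 libraries had it at 0.177 to 1.51 CPM. The erythroid factor TAL1 was in both lines, at 164 to 244 CPM in KBM7 and 213 to 253 in K562. GATA1 was at 18.7 to 32.9 and 211 to 272 CPM. Of the myeloid genes, KBM7 held SPI1 (93.5 to 122 CPM) and CD33 (79.9 to 97.4), but ELANE, CSF3R and CEBPE were at or under 0.954 CPM there. K562 had SPI1 at 13.6 to 38.5 CPM and CD33 at 7.71 to 17.3. The B-cell gene PAX5 at 70.2 to 89.6 CPM in KBM7 and the epithelial keratin KRT8 at 345 to 602 CPM in K562 stood out among markers of other tissues.

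In siCtrl cells the members spanned more than an order of magnitude in level per length, the TMM-scaled CPM per kilobase of the canonical transcript. In KBM7 the mean ran from 8.83 for ORC4 to 289 for MCM7, and in the first K562 set from 9.28 for ORC4 to 292 for MCM7. MCM7, a helicase subunit, ranked first of 39 in KBM7 and in both K562 sets. The helicase subunits act as a ring with equal numbers of each, yet their RNAs were not at equal levels: in KBM7 MCM4 was at 252, MCM3 at 153, MCM2 at 115, MCM5 at 101 and MCM6 at 95.4. In the first K562 set the order was MCM7, MCM3, MCM4, MCM6, MCM2 and MCM5, with MCM5 at 42.3. MCM3 (118 to 120) and MCM4 (115 to 116) were neighbours there whose libraries did not overlap, and MCM4 lay above MCM3 in the second set (157 against 132). Within the origin recognition complex ORC4, a constitutive subunit, was lowest in KBM7 and in both K562 sets. Of the GINS subunits, GINS2 was highest in KBM7 (34.4) and in the first K562 set (16.2), and GINS3 in the second (22.9). These levels and ranks rest on 1 transcript length per gene, and several changed with the length of all annotated exons in its place. PCNA (239) then passed MCM7 (144) as first of 39 in KBM7, while MCM7 stayed first in both K562 sets. MCM4 then lay below MCM3 in KBM7 (104 against 129) and in both K562 sets (47.6 against 100.4 and 64.6 against 111), so that the order of these 2 subunits in KBM7 and in the second K562 set was reversed. GINS3 (9.86) then lay below GINS2 (16.2) in the second K562 set. ORC4 stayed lowest of the origin recognition complex in KBM7 and both K562 sets, but the lowest of all 39 was GINS3 in KBM7 and in the first K562 set and POLA2 in the second.

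The lines differed in which members they expressed most. The tables were normalized separately, so these are levels side by side and not a test. The KBM7 siCtrl libraries lay above all 4 K562 siCtrl libraries for 19 members and below them for 14, and over the 12412 genes tested in both lines 42.7% lay above and 35.6% below. POLA1, the catalytic subunit of polymerase alpha, had the largest ratio of KBM7 to K562, at 2.19, followed by GINS4 at 2.12 and MCM5 at 1.98. CDC45 had the smallest, at 0.342, followed by ORC5 at 0.517 and RFC2 at 0.557.

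The response to siUSP15 in KBM7 was small for these genes. CDC6, which loads the helicase, fell by 0.30 on the log2 scale, and GINS1, ORC3 and POLD3 rose by 0.30, 0.29 and 0.29. In all, 3 of 39 members rose and 6 fell past an adjusted p of 0.05 (edgeR's quasi-likelihood test, Benjamini-Hochberg over all genes tested). Over all genes tested, 29.0% were called, 13.2% higher and 15.8% lower, so the 9 members called, 23.1% of the list, were a share near the background. The median log2 fold change of the members was -0.02, with 19 positive and 20 negative, against 0.00 over all genes. No 95% interval of a member reached a change of 1.5-fold, the lowest bound being -0.40 and the highest 0.42 on the log2 scale. In these bulk libraries, fewer cells in S phase and less RNA per cell cannot be told apart.

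In K562, fitted with set as a block, 1 member was higher and 3 were lower, against 15.8% of all genes called, 6.88% higher and 8.90% lower. GINS1 was the higher member and RFC5, LIG1 and CDC45 were the lower ones. With the replicate number as a block in place of set, 0 members were higher and 1 lower, RFC5 (edgeR adjusted p = 0.034), while GINS1, LIG1 and CDC45 were at 0.055, 0.068 and 0.105. GINS1 was also the 1 member called in both lines. The signs in KBM7 and K562 were the same for 19 of 39 members. All 39 intervals lay between -0.28 and 0.28 on the log2 scale, and the largest fold change was that of RFC5, 1.14-fold lower in siUSP15. The median absolute log2 fold change of the members was 0.062 in KBM7 and 0.055 in K562, against 0.161 and 0.106 over all genes tested, which were less abundant (median log2 CPM 4.66 in KBM7, against 6.66 for the members). In the plot of change against level, the members lie in the narrow part of the cloud.

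**Figure D1:**
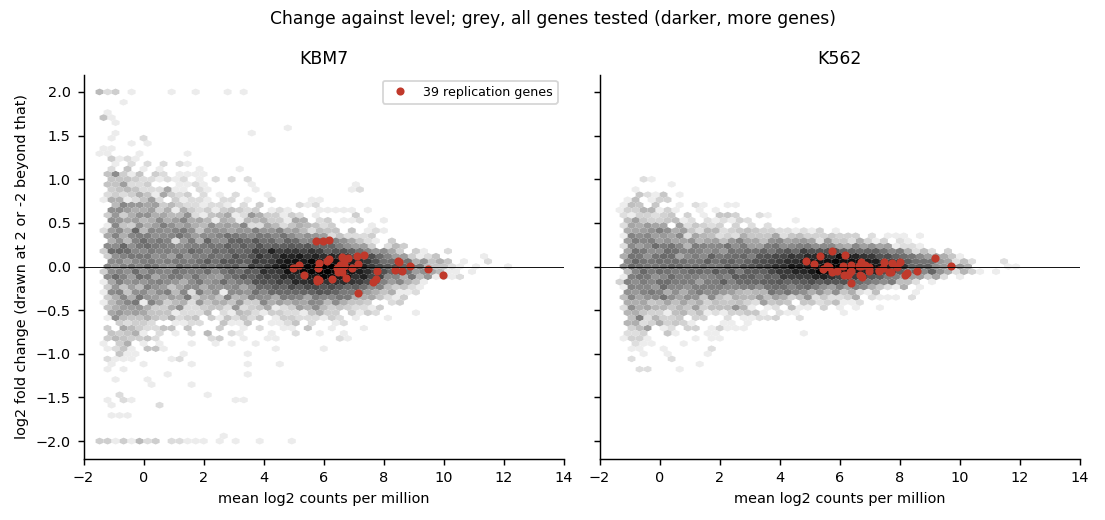
Log2 fold change of siUSP15 against siCtrl (vertical axis, values beyond 2 drawn at 2) against mean log2 CPM in KBM7 (left) and K562 with set in the model (right). Grey hexagons count all genes tested and red points are the 39 replication genes, whose largest absolute change was 0.30 in KBM7 and 0.19 in K562.

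**Figure D2:**
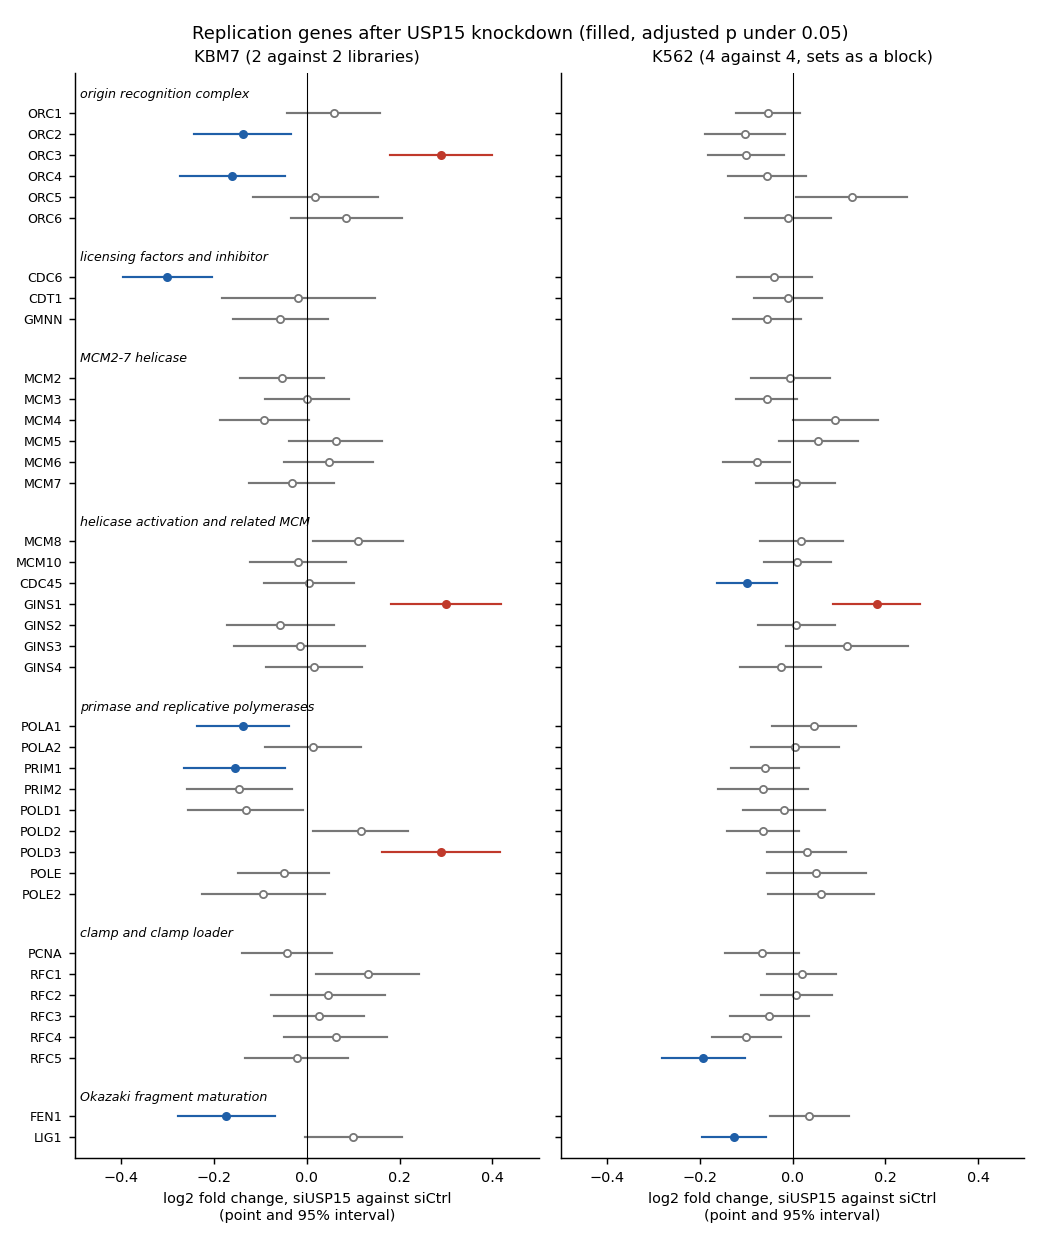
Log2 fold change of siUSP15 against siCtrl for each member by role, with its 95% interval, in KBM7 (left, 2 against 2 libraries) and K562 (right, 4 against 4, sets as a block). Filled points passed an adjusted p under 0.05, red for higher and blue for lower. GINS1 is filled red on both sides, and ORC3 and POLD3 on the KBM7 side alone.

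Promoter sequence is a feature that the choice of members did not use. RefSeq promoters on GRCh38.p14, from 250 bases before to 50 bases after the start, were matched for 35 of the 39 members. They were searched on both strands for the letters TTTCCCGC, TTTCGCGC, TTTGCCGC and TTTGGCGC, which spell the classic E2F site. A match lay in 18 of the 35 (51.4%), against 3.31% of all 35116 promoters, 4.77% of those of genes tested in KBM7 and 4.99% of those of genes tested in K562. All 4 matched promoters of MCM2-7 searched here held one, as did 4 of 6 in the group of helicase activation genes and 1 of 6 in the origin recognition complex. The letters CCAAT, the core of the NF-Y site, were in 20 of 35 (57.1%), against 34.6% of all promoters. A match is a description of the letters and not of binding. Among members called in KBM7, the 2 higher ones with a promoter (GINS1, ORC3) both held an E2F match, and 2 of the 6 lower ones (CDC6, POLA1) did. The promoters of CDC6, GINS1 and ORC3 are shown because their calls in KBM7 were the most stable, that of MCM7 because it had the highest level per kilobase of canonical transcript, and that of RFC5, which was lower in K562, as one with no match. Capitals mark E2F matches, on either strand.
CDC6 promoter, chr17:40287629-40287928, plus strand: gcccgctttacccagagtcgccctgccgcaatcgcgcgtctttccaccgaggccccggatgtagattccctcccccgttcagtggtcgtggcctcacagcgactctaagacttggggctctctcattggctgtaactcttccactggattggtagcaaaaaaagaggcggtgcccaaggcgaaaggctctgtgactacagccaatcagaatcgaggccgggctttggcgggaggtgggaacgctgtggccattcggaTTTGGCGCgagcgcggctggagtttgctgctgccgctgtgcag
GINS1 promoter, chr20:25407423-25407722, plus strand: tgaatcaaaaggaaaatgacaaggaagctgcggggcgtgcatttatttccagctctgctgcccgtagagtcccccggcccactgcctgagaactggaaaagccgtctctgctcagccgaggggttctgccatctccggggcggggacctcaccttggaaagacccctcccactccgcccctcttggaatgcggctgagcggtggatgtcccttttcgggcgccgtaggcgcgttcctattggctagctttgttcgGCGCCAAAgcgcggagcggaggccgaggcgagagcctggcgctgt
ORC3 promoter, chr6:87589885-87590184, plus strand: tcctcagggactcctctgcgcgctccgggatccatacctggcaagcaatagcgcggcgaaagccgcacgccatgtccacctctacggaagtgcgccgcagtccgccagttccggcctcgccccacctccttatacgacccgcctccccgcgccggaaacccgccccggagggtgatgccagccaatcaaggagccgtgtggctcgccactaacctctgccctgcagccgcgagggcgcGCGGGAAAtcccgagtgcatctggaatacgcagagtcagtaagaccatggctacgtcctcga
MCM7 promoter, chr7:100101348-100101647, minus strand: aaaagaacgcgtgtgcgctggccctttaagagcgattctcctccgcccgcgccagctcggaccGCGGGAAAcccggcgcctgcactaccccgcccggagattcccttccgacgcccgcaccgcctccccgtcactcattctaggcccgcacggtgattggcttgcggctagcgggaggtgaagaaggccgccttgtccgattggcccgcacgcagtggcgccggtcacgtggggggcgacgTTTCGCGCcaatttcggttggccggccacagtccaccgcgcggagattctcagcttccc
RFC5 promoter, chr12:118016453-118016752, plus strand: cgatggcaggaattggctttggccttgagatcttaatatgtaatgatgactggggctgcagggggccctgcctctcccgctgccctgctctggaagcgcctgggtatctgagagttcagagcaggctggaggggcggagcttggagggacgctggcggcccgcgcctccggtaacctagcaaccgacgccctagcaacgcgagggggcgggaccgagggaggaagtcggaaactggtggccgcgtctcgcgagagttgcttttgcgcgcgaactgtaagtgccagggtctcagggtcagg
Counting the start as base 1, the CDC6 match begins at base 8 on the gene's strand, the GINS1 match at base 6 on the opposite strand and the ORC3 match 12 bases before the start, also on the opposite strand. CDC6 and GINS1 carry the same 8 letters, on opposite strands, and moved in opposite directions in KBM7.

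The origin recognition complex marks origins and is the platform for loading. ORC3, a core subunit (chr6:87590067-87667453, hg38), was at 54.9 and 57.1 CPM in KBM7 siCtrl and at 68.4 and 68.3 in siUSP15. Both siUSP15 libraries were above both siCtrl libraries, a log2 fold change of 0.29 ± 0.05 (SE, n = 2 per group, edgeR adjusted p = 0.00128). In K562 ORC3 was at 77.2, 81.5, 81.9 and 79.9 CPM in siCtrl and at 75.8, 75.8, 76.0 and 71.4 in siUSP15. All 4 siUSP15 libraries lay below all 4 siCtrl libraries, as was so for 4.51% of all genes tested in K562. The change of -0.10 did not pass (edgeR adjusted p = 0.091). The difference between the lines was the largest of any member, at 0.39 ± 0.07 (edgeR adjusted p = 0.000938), and it passed under all 17 alternatives tried.

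ORC2 and ORC4, other core subunits, were lower in KBM7 by 0.14 and 0.16. ORC2 was at 83.0 and 80.6 CPM in siCtrl and 75.5 and 73.1 in siUSP15, and ORC4 at 58.7 and 56.9 against 51.9 and 51.5. The groups did not overlap, as was so for 66.5% of all genes tested in KBM7, and both calls were near the threshold (edgeR adjusted p = 0.046 and 0.036). The ORC2 call was lost without siCtrl 1, siCtrl 2 or siUSP15 2 (adjusted p 0.116 to 0.285, edgeR), and the ORC4 call without any single KBM7 library (0.054 to 0.248, edgeR). ORC4 shares 4.83% of its exon bases with ACVR2A on the other strand, and no source says that reads were counted by strand. ORC1, the subunit that cycles, and ORC6 were above siCtrl in KBM7 with no overlap, which with that background is not a result, at 104 and 103 CPM against 102 and 97.6 and at 73.6 and 74.3 against 66.5 and 73.1, and neither passed. ORC5 was near no change in KBM7 (36.1 and 35.7 against 37.4 and 35.2 CPM) and is described with the K562 sets.

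Of the licensing factors, CDC6 showed the lowest p of any member in KBM7. CDC6 (chr17:40287633-40304657, hg38) was at 158 and 154 CPM in KBM7 siCtrl and at 127 and 126 in siUSP15. The siUSP15 libraries lay clear of the others, and the level fell by 18.8%, a log2 fold change of -0.30 ± 0.04 (SE, n = 2 per group, edgeR adjusted p = 0.000372). In K562 it was 137 and 134 against 134 and 139 CPM in the first set and 190 and 182 against 179 and 170 in the second. The groups overlapped in the first set and did not in the second, and no test within K562 passed (adjusted p = 0.491 with set in the model, edgeR). The response of CDC6 differed between the lines by -0.26 ± 0.07 (edgeR adjusted p = 0.015), a call lost without KBM7 siCtrl 1, siUSP15 1 or siUSP15 2 (0.053 to 0.079, edgeR). CDT1, the partner of CDC6 in loading, was at 95.8 and 78.0 CPM in the KBM7 siUSP15 libraries, on either side of the siCtrl values of 88.0 and 88.4. GMNN, which encodes geminin, was lower in the siUSP15 libraries of KBM7 and of both K562 sets without overlap within each, by -0.06 in both lines, and did not pass. Groups did not overlap for 68.1% of all genes tested in the first K562 set and 48.8% in the second.

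None of the MCM2-7 helicase genes was called in KBM7 or in K562 with set in the model by edgeR, DESeq2 or limma-voom. At an unadjusted p under 0.05 in edgeR there were 0 and 2 of the 6, against 40.5% and 32.8% of all genes tested. In KBM7 their log2 fold changes lay between -0.09 for MCM4 and 0.06 for MCM5, and in K562 between -0.08 for MCM6 and 0.09 for MCM4. MCM4, the member with the highest CPM, was at 1046 and 1004 in KBM7 siCtrl and at 970 and 954 in siUSP15. The siUSP15 libraries were lower, by -0.09 ± 0.04 (edgeR adjusted p = 0.139). MCM7 was at 720 and 706 CPM against 689 and 704, also lower without overlap and not called (adjusted p = 0.597, edgeR). MCM3 was nearest to no change, at 475 and 463 against 469 and 469 CPM.

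Among the genes that turn the helicase on, GINS1, a subunit of the GINS complex (chr20:25407727-25452628, hg38), was higher with siUSP15 in KBM7 and in both K562 sets. It was at 66.8 and 62.7 CPM in KBM7 siCtrl and at 82.3 and 77.01 in siUSP15, a log2 fold change of 0.30 ± 0.05 (SE, n = 2 per group, edgeR adjusted p = 0.0017). In K562 it was at 46.5, 48.4, 53.0 and 50.2 in siCtrl and at 57.0, 56.4, 55.6 and 55.5 in siUSP15. GINS1 was the 1 member whose 4 siUSP15 libraries of K562 all lay above the 4 siCtrl libraries, as did 530 of 13731 genes (3.86%). ORC2, ORC3, PRIM1, RFC4 and RFC5 lay below in this way, as did 619 of 13731 genes (4.51%). The change with set in the model was 0.18 ± 0.04 (edgeR adjusted p = 0.017). This K562 call was lost without siCtrl 1, siCtrl 2 or siUSP15 1 (0.066 to 0.072, edgeR), whereas the KBM7 call held without each library. GINS1 shares 3.23% of its exon bases with NINL on the other strand. The partners GINS2 and GINS4 did not pass in KBM7, with log2 fold changes of -0.06 and 0.02, and GINS3 was at -0.02.

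CDC45, which joins the helicase with GINS, was at 103 and 102 CPM in KBM7 siCtrl and at 104 and 101 in siUSP15. In K562 it was at 292 and 286 against 264 and 274 CPM in the first set and at 313 and 307 against 290 and 290 in the second. The siUSP15 libraries were lower within each set, by -0.10 ± 0.03 (n = 4 per group, edgeR adjusted p = 0.043). The call was lost in 7 of 8 fits that left out 1 library, the exception being siUSP15 2 (adjusted p 0.07 to 0.163, edgeR). MCM10, a factor of helicase activation, had log2 fold changes of -0.02 in KBM7 and 0.01 in K562, at 127 and 120 against 123 and 120 CPM in KBM7. MCM8, a relative of the helicase with a role in repair, was higher in KBM7, at 94.4 and 94.0 against 101 and 103 CPM, and did not pass (edgeR adjusted p = 0.086). It shares 33.3% of its exon bases with a protein-coding gene on the same strand.

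Of the primase and polymerase genes, POLD3, an accessory subunit of polymerase delta (chr11:74493851-74669117, hg38), rose in KBM7. It was at 50.4 and 46.4 CPM in siCtrl and at 60.4 and 58.0 in siUSP15, a log2 fold change of 0.29 ± 0.06 (SE, n = 2 per group, edgeR adjusted p = 0.0032). In K562 it was at 35.6, 35.2, 34.4 and 34.2 in siCtrl and at 36.8, 36.3, 34.0 and 35.4 in siUSP15. The groups overlapped there, and the responses of the lines differed by 0.26 ± 0.07 (edgeR adjusted p = 0.021), a call lost without KBM7 siCtrl 2 or siUSP15 1 (0.119 to 0.171, edgeR). Per kilobase of canonical transcript POLD3 was the least abundant polymerase gene in KBM7, at 12.8 CPM, whereas with the length of all annotated exons POLA2 (8.38) lay below it (8.80).

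The catalytic subunits of primase and polymerase alpha moved the other way in KBM7. PRIM1, the catalytic primase subunit, was at 60.5 and 60.3 CPM in siCtrl and 54.3 and 54.2 in siUSP15, and POLA1 was at 231 and 217 against 201 and 206. Their log2 fold changes were -0.16 ± 0.05 and -0.14 ± 0.05 (edgeR adjusted p = 0.036 and 0.04). The PRIM1 call was lost without any single KBM7 library (0.052 to 0.194, edgeR), and the POLA1 call without siCtrl 1, siCtrl 2 or siUSP15 1 (0.059 to 0.34, edgeR). PRIM1 shares exon bases with 3 other genes, among them 10.9% with a protein-coding gene without a symbol and 4.2% with NACA, both on the same strand. PRIM2, the regulatory primase subunit, was at 57.8 and 56.6 against 51.2 and 52.3 CPM, a value of -0.15 that missed the threshold (edgeR adjusted p = 0.054). The other polymerase genes did not pass in either line, POLA2, POLD1, POLD2, POLE and POLE2 lying between -0.13 and 0.12 in KBM7 and between -0.06 and 0.06 in K562.

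The clamp gene PCNA had the second highest level per kilobase of canonical transcript in KBM7 and did not pass there, at 344 and 326 CPM against 330 and 320. RFC5, a small subunit of the clamp loader (chr12:118013588-118033130, hg38), was the member with the lowest p in K562 with set in the model. It was at 90.2, 92.8, 86.3 and 81.0 CPM in siCtrl and at 76.97, 76.97, 78.5 and 73.9 in siUSP15. All 4 lay below all 4, as was so for 4.51% of all genes tested in K562. The change was -0.19 ± 0.04 (SE, n = 4 per group, edgeR adjusted p = 0.011), and the call was lost without siCtrl 2 or siUSP15 1 (0.055 and 0.062, edgeR). In KBM7 RFC5 was at 55.8 and 55.8 against 55.3 and 54.5 CPM, a difference of -0.02. RFC4 was also below siCtrl in all 4 K562 libraries, at 106, 107, 106 and 103 CPM against 100, 97.7, 101 and 95.01, and missed the threshold (adjusted p = 0.066, edgeR). RFC1, RFC2 and RFC3 did not pass in either line. RFC5 shares 5.72% of its exon bases with WSB2 on the other strand, and PCNA, RFC3 and RFC5 have processed pseudogenes named after them.

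The 2 genes of Okazaki fragment maturation were each lower in 1 line. FEN1, the flap nuclease, was at 216 and 210 CPM in KBM7 siCtrl and at 182 and 196 in siUSP15, a change of -0.17 ± 0.05 (n = 2 per group, edgeR adjusted p = 0.018). This call was lost without siCtrl 1, siCtrl 2 or siUSP15 1 (0.059 to 0.169, edgeR). FEN1 shares 2.23% of its exon bases with FADS2 on the same strand. LIG1, the replicative ligase, was at 106 and 110 against 118 and 112 CPM in KBM7, higher without overlap but not called (0.10, edgeR adjusted p = 0.139). In K562 it was at 102 and 105 against 96.0 and 94.7 CPM in the first set and at 116 and 118 against 106 and 109 in the second, lower within each set. The K562 change was -0.13 ± 0.03 (edgeR adjusted p = 0.022), lost without siCtrl 1, siCtrl 2, siCtrl 4, siUSP15 1 or siUSP15 3 (0.054 to 0.108, edgeR). The lines differed by 0.23 ± 0.06 for LIG1 (edgeR adjusted p = 0.015), lost without KBM7 siCtrl 1 or siUSP15 1 (0.083 and 0.104, edgeR).

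Read on its own, the first K562 set had 6 members higher and 3 lower, against 35.7% of all genes called, 17.5% higher and 18.2% lower. The 9 members called were thus a smaller share (23.1%) than that of all genes. MCM4 rose from 467 and 470 to 527 and 549 CPM, by 0.20 ± 0.03 (n = 2 per group, edgeR adjusted p = 0.000274). ORC5 rose from 60.5 and 59.0 to 70.0 and 73.8 CPM, by 0.27 ± 0.05 (edgeR adjusted p = 0.000406). GINS3, a partner of GINS1, rose from 28.0 and 27.0 to 33.0 and 34.0 CPM, by 0.29 ± 0.06 (edgeR adjusted p = 0.000724). It shares 10.9% of its exon bases with a noncoding gene on the other strand. GINS1 was higher by 0.26 and RFC5 lower by -0.25, and the calls of these 5 genes held under all 13 alternatives tried. MCM5 (0.14), POLA1 (0.13), LIG1 (-0.12) and CDC45 (-0.10) were also called. Of these, MCM5 lost its call without siCtrl 1, siCtrl 2 or siUSP15 2 (0.08 to 0.147, edgeR), POLA1 without siCtrl 1, siUSP15 1 or siUSP15 2 (0.05 to 0.293, edgeR), LIG1 in 6 of 8 such fits (0.055 to 0.23, edgeR) and CDC45 in 7 of 8 (0.078 to 0.311, edgeR). POLA1 was thus called higher in these K562 libraries and lower in KBM7, and the difference between the lines over all K562 libraries did not pass (-0.18, adjusted p = 0.105, edgeR).

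In the second set 0 members passed in edgeR, and likewise in DESeq2 and limma-voom, against 2.29% of all genes called, 1.11% higher and 1.19% lower. At an unadjusted p under 0.05 there were 13 members (33.3%), against 16.8% of all genes tested. The values lay on 1 side of zero: 36 of 39 log2 fold changes were negative, with a median of -0.05, against 7168 of 14337 genes and a median of 0.00. GINS1 (0.11), POLE (0.12) and POLD3 (0.01) were the exceptions. This lean was not particular to the members, as the other gene lists counted below leaned the same way in this set. Values were negative for 10 of 15 firing factors, 19 of 26 other fork factors and 9 of 11 genes of deoxynucleotide supply. They were negative for 17 of 28 E2F and RB regulators and 17 of 20 G2 and mitosis genes. The siUSP15 libraries of this set lay below the siCtrl libraries for 25 members and above for 1, while over all genes tested in K562 3427 of 13731 lay below and 3280 above. The largest value was that of PRIM2, at 59.3 and 57.0 CPM against 51.6 and 53.4 (-0.15, edgeR adjusted p = 0.126). The summed level of the members was 6663 and 6520 CPM in siCtrl and 6393 and 6308 in siUSP15, against 5551 and 5617 and then 5622 and 5762 in the first set. The sum thus fell in the second set, whose siCtrl libraries started higher. In the first set the nearest siCtrl and siUSP15 sums almost met, at 5617 and 5622 CPM. A sum weighs abundant genes most, and MCM4 went from a mean of 469 to 538 CPM there and MCM7 from 721 to 768. Of the 39 log2 fold changes in the first set, 23 were positive and 16 negative.

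The difference of the responses was tested directly. In the second set 4 members responded lower than in the first and 0 responded higher, against 12.5% of all genes called, 6.77% lower and 5.73% higher. At an unadjusted p under 0.05 there were 10 members in either direction (25.6%), a share near that of all genes (27.8%), and 0 were called higher by DESeq2 or limma-voom. The 4 were GINS3 (-0.32 ± 0.07, edgeR adjusted p = 0.012), ORC5 (-0.28 ± 0.07, 0.014), MCM4 (-0.22 ± 0.05, 0.00957) and MCM7 (-0.17 ± 0.05, 0.036). MCM7 was at 718 and 723 against 752 and 783 CPM in the first set and at 941 and 916 against 901 and 858 in the second. GINS3 was at 50.4 and 50.3 against 50.2 and 48.4 CPM in the second set, ORC5 at 81.2 and 76.5 against 78.4 and 78.2, and MCM4 at 640 and 633 against 632 and 629. In these 4 genes the second set's siCtrl level was above the first set's siUSP15 level. By mean CPM that was also so for every other member except GINS1, GINS4, POLD3 and RFC1, so it does not set these 4 genes apart. The share over all genes was not counted. The second set's siCtrl level is itself part of the difference by which the 4 genes were picked. These levels therefore cannot say why the responses differed, which was not tested. The calls were lost without siCtrl 2 for GINS3 (0.06, edgeR), without siCtrl 1 or siCtrl 3 for MCM4 (0.055 and 0.071), without any of 4 libraries for ORC5 (siCtrl 1, siCtrl 2, siCtrl 3 or siUSP15 2, 0.056 to 0.085) and in 6 of 8 such fits for MCM7 (0.056 to 0.157).

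In siCtrl cells alone, 29 members were higher in the second set than in the first without overlap, 3 were lower, and the median ratio was 1.13. Over all 13731 genes tested in K562, 38.3% were higher and 41.7% lower in this way. The ratio was highest for GINS3 (1.83), MCM5 (1.41), CDC6 (1.37) and MCM4 (1.36), and lowest for RFC5 (0.914). Mitochondrially encoded RNA made up 4.34 to 4.94% of reads in the first set and 2.91 to 2.96% in the second, and 8 of its 13 genes were higher with siUSP15 in the first set. The summed level of the myeloid marker genes was 59.0 and 59.4 CPM in siCtrl and 36.9 and 32.4 in siUSP15 of the first set, and 30.2 and 32.4 against 26.7 and 27.2 in the second. What part these differences have in the responses was not tested, and the labels do not say whether the sets differ by culture, by sequencing run or otherwise.

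Between the lines, 3 members responded higher in KBM7 than in K562 (ORC3, POLD3, LIG1) and 1 lower (CDC6), against 16.0% of all genes called, 7.94% higher and 8.03% lower. The 6 clamp and clamp loader genes all had a positive difference, from 0.03 for PCNA to 0.17 for RFC5, as did 7909 of all 15833 genes. Of the 6, 0 passed in edgeR and 2 were at an unadjusted p under 0.05, against 30% of all genes. GINS1 differed by 0.12 (adjusted p = 0.32, edgeR), with a 95% interval that did not reach 1.5-fold. The sample labels of KBM7 and K562 begin with different numbers, so cell line cannot be told apart from any batch behind them in this comparison. In KBM7 the summed level of 11 erythroid marker genes was 343 and 377 CPM in siCtrl and 200 to 225 in siUSP15, with 6 of the 7 tested lower, and that of 11 myeloid genes was 227 to 230 against 270 to 290, with 8 of 10 tested higher and 1 lower. KLF1, an erythroid transcription factor, was at or under 1.51 CPM in every KBM7 library. The part of this shift in the members' changes was not tested.

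Other genes of the same process were counted in lists chosen with the members. Over all genes tested, 29.0% were called in KBM7 and 15.8% in K562. The 5 lists that follow had 33.3, 7.69, 9.09, 28.6 and 40.0% called in KBM7, in their order of mention. In K562 they had 13.3, 11.5, 36.4, 17.9 and 40.0%. Of 15 firing kinases and firing factors, 2 were higher and 3 lower in KBM7 and 1 was higher and 1 lower in K562 with set in the model. CDK2, the S-phase kinase, was lower in both lines (-0.25 ± 0.05 and -0.26 ± 0.04, edgeR adjusted p = 0.00273 and 0.00452), and its activator CCNE1 was higher in both (0.25 ± 0.06 and 0.20 ± 0.06, 0.00907 and 0.046). CCNE2 was lower in KBM7 (-0.29, adjusted p = 0.00114, edgeR). Of 26 other fork and chromatin assembly factors, 1 was higher and 1 lower in KBM7 (POLE3 at 0.13, TOP1 at -0.18), and 1 was higher and 2 lower in K562 (TONSL at 0.16, RPA2 at -0.17, ASF1B at -0.13).

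Of 11 genes of deoxynucleotide supply, 1 was higher in KBM7 and 1 higher and 3 lower in K562. SAMHD1, a hydrolase that breaks down deoxynucleotides, rose in KBM7 by 1.02 ± 0.06 (edgeR adjusted p = 7.37e-07) and in K562 by 0.16 ± 0.04 (0.026). DCK, a kinase of nucleotide salvage, fell in K562, with a log2 fold change of -0.44 (edgeR adjusted p = 0.0027). Of 28 E2F and RB family regulators, 4 were higher and 4 lower in KBM7 and 3 higher and 2 lower in K562. In KBM7 the kinase inhibitor CDKN1A rose by 0.50 and the RB relative RBL1 by 0.41, and E2F5 and E2F3 were at -0.48 and -0.45. In K562 the G1 cyclins CCND1 and CCND3 were at -0.63 and -0.15, and the E2F partners TFDP2 and TFDP1 at 0.35 and 0.20, all called.

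Of 20 genes of G2 and mitosis, 6 were higher and 2 lower in KBM7 and 1 was higher and 7 lower in K562, with medians of 0.08 and -0.08 against 0.00 over all genes. KIF23, CCNB1 and CCNB2 were at 0.19, 0.16 and 0.16 in KBM7, and CENPE, AURKB and CDK1 at -0.22, -0.21 and -0.17 in K562. The difference between the lines was called higher in KBM7 for 6 of the 20 and lower for 0 in edgeR, against 7.94% and 8.03% of all genes. At an unadjusted p under 0.05 there were 12 of the 20, against 30% of all genes. The replication genes had medians of -0.02 and -0.01 in the same comparisons.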

How the data were processed

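RNA of KBM7 and K562 cells was analysed from 12 libraries. The authors deposited raw counts per gene and library, made from reads that the submitters' notes say were aligned with TopHat2 2.1.0 to hg38 and counted with HTSeq. The paper names another counting tool, and whether counting used strand is not given in the sources used here. The deposited tables also hold log2 CPM values of the authors (12 columns in all, 1 per library), log2 fold changes and adjusted p-values, which were not used.

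From these counts, genes kept by filterByExpr were given TMM library sizes, and edgeR 4.0.16 in R 4.3.3 gave 2-sided quasi-likelihood tests, called at 0.05 after Benjamini-Hochberg adjustment across every gene tested. KBM7 was fitted alone, K562 with its sets as a block, each set within 4 cells of set and siRNA (14337 genes), and the lines together with 3 strata (15833 genes). Intervals are at 95%. Members and lists were chosen with earlier results of these data known. Values by library are given for USP15 and for members called in any comparison, up to 4 per role, and for members without a call that complete a role, chosen after their values were seen. Of the other lists, up to 4 genes with the lowest p per line are named. Lengths and shared exon bases come from GENCODE v44 on the files' build, a later release than the authors', and promoters from RefSeq, read with Python 3.11.15.

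Alternatives were RLE size factors, no filter, DESeq2 1.42.0, limma-voom (limma 3.58.1), each library left out, other blocks, joint or separate fits and a threshold of 0.01. A lone library left in a group was assumed to vary like the others. Replicate numbers were checked for pairing. In K562 the deviations were taken from the mean over both sets, and all 4 same-numbered pairs correlated, at 0.55 to 0.695. Libraries of the other number in a set correlated too (0.551 to 0.701). The check therefore cannot tell pairing by number from set in K562, and the replicate block is given beside the K562 calls as an alternative alone. In KBM7 the deviations of same-numbered pairs did not correlate (0.000978). Libraries of a group were not copies. The chi-square per degree of freedom was 1.67 to 4.58 within KBM7 groups and within K562 sets, and 30.3 to 48.5 between the sets. On simulated counts with 100 genes changed by 0.25 on the log2 scale, edgeR recovered 73% in KBM7 (14777 genes), 98% in K562, 88% and 84% in the sets, 32% in the set difference and 44% in the line difference. Of genes changed by 0.5 it recovered 98 to 100%, and 5.71 to 9.66% of calls were false.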

Additional observations from a re-analysis of the deposited data

Results flagged for a closer look

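In 3 groups of 4 K562 libraries, 1 library stood apart in log2 CPM, with the gap to its nearest neighbour a large part of the group's range. The gap was 0.962 of the range for ORC3 in siUSP15, where replicate 4 was lowest at 71.4 CPM, 0.843 for MCM8 in siCtrl, where replicate 3 was highest at 90.9 CPM, and 0.952 for GINS4 in siCtrl, where replicate 2 was highest at 46.8 CPM. Chance gives such a gap in about 1 in 20 groups.

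The responses to siUSP15 differed between the K562 sets for 4 members, second set minus first, by a test of the difference itself (edgeR). The differences in log2 fold change were -0.28 for ORC5, -0.22 for MCM4, -0.17 for MCM7 and -0.32 for GINS3. They differed between KBM7 and K562, KBM7 minus K562, by 0.39 for ORC3, -0.26 for CDC6, 0.26 for POLD3 and 0.23 for LIG1.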

How the results depend on the processing

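Of 3198 values of single members under the alternatives, 3043 kept their direction and side of the threshold, 119 no longer passed, 36 newly passed and 0 reversed. The 6 members lower in KBM7 became 3 with no filter on low counts, 2 with DESeq2, 2 with both lines in 1 fit and 1 at an adjusted p under 0.01. The 1 higher and 3 lower members in K562 became 0 and 1 with the replicate block, 0 and 0 with no block of any kind, and 0 and 0 at an adjusted p under 0.01, and the lower count was 1 with no filter. In K562 replicates 1 and 2, the 3 lower members became 1 with no filter, 1 with DESeq2 and 1 with the set fitted alone. The 4 members lower in the difference between the sets became 7 with no filter. The 3 higher and 1 lower in the difference between the lines became 1 and 0 with no K562 set term. The cause of these changes was not tested.

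With each library left out in turn, the counts higher and lower were 3 to 6 and 1 to 4 in KBM7, 0 to 2 and 0 to 3 in K562, 4 to 8 and 1 to 2 in replicates 1 and 2, and 0 to 1 and 0 to 0 in replicates 3 and 4. They were 0 to 1 and 1 to 8 for the difference between the sets, and 1 to 4 and 0 to 3 for that between the lines.

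In KBM7, where replicate numbers did not pair the libraries, the replicate block gave 3 higher and 4 lower, and in both lines it moved 5 calls of single members. In the simulation, a change of 0.25 on the log2 scale was often missed in the differences between sets and lines. Fewer genes were changed there than were called in the data, and the adjusted p depends on that share, so these rates may not carry over.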
